A study of Mus musculus with 8 samples.

Results

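The autophagy machinery was examined as 38 genes, taken by their GENCODE M21 symbols from the 54838 genes listed in every count table. Of these, 5 initiate autophagy, 11 nucleate the membrane or supply it with lipid, 15 conjugate ATG8 proteins to it, and 5 encode cargo receptors. The remaining genes, *Foxo3* and *Tecpr1*, stand outside these groups. All 38 passed the filter on low counts, with 69 reads or more in every library and totals over the 8 libraries from 706 (*Map1lc3a*) to 81356 (*Tax1bp1*).

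The cells were mouse *iMLL-AF9* cells, in which a doxycycline-inducible allele encodes the *MLL-AF9* fusion oncogene. The labels give bone marrow as the tissue, leukemic stem cells as the cell type and WT as the genotype of all 8 samples, and the *iMLL-AF9* allele is shared by both groups. Mice of the study were on the C57BL/6 background. In 4 samples the cells received IOX5, a small-molecule inhibitor of the HIF prolyl hydroxylases (PHDs), and in 4 they received DMSO, the solvent used as vehicle. The samples are numbered 1 to 4 in each group, and neither the dose, the time nor the meaning of the numbers is given in the sources used here. Nothing states that the 4 samples of a group came from separate mice or cultures, so p-values measure the spread between these samples, which may be technical. Poly(A) RNA was sequenced, and 12343770 to 14116054 reads per DMSO library and 11351507 to 12708888 per IOX5 library fell on genes.

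Libraries with the same number resembled each other, and numbers 3 and 4 also resembled one another. The summed level of 8 genes of leukemic progenitors (*Kit*, *Cd34*, *Ptprc*, *Mpo*, *Hoxa9*, *Meis1*, *Itgam* and *Myb*, all detected) was 2302 to 3079.5 CPM (counts scaled to library size) in numbers 1 and 2, and 4533 to 5500.5 CPM in numbers 3 and 4. Most of this sum was *Mpo*, with a mean of 2195 of 3559 CPM with DMSO and 2626 of 4176 CPM with IOX5. B cell and T cell markers gave 13 reads and 1 read in all libraries together. Of the other lists, the 4 macrophage markers *Adgre1*, *Csf1r*, *Cd68* and *Mrc1* summed to 147 to 205 CPM with DMSO and 223 to 497 CPM with IOX5, where IOX5 2 was highest. All 4 had higher means with IOX5, 1 of the 4 without overlap between the groups, and none was at 0. Neutrophil markers summed to 144 to 519 CPM with DMSO and 184 to 746 CPM with IOX5. Mast cell and basophil markers (*Cpa3*, *Mcpt8*, *Fcer1a* and *Ms4a2*) summed to 81.0 to 332 CPM with DMSO and 104 to 571 CPM with IOX5. In that sum, *Mcpt8* had a mean of 109 of 195 CPM with DMSO and 158 of 323 CPM with IOX5. Megakaryocyte markers summed to 16.3 to 64.5 CPM with DMSO and 38.9 to 118 CPM with IOX5. Most of the neutrophil sum was *S100a8*, with a mean of 286 of 300 CPM with DMSO and 364 of 386 CPM with IOX5. Erythroid markers were at 3.11 to 15.5 CPM with DMSO and 4.97 to 25.6 CPM with IOX5. The endothelial list summed to 83.1 to 163 CPM with DMSO and 132 to 219 CPM with IOX5. Nearly all of that sum was *Pecam1*, with means of 142 CPM with DMSO and 189 CPM with IOX5. *Cdh5* had means of only 0.30 and 0.34 CPM, and *Kdr* 0.47 and 0.56 CPM. Stromal markers had 134 reads in all libraries together. The macrophage, neutrophil, mast cell and basophil, megakaryocyte, erythroid and endothelial sums, and that of the progenitor genes, were higher with IOX5 in all 4 pairs of equal numbers. Of the 8 progenitor genes, 6 had higher means with IOX5 and 0 were higher without overlap. *Ptprc* (means of 449 CPM with DMSO and 439 CPM with IOX5) and *Hoxa9* (250 and 242 CPM) had lower means. In bulk RNA, fewer cells of a type and less RNA per cell cannot be told apart, and the part of these markers in the results on autophagy genes was not tested.

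Autophagy encloses cytoplasm in a double membrane, the autophagosome, and delivers it to the lysosome for breakdown. The ULK complex starts the process, and a lipid kinase complex around VPS34 marks the membrane with phosphatidylinositol 3-phosphate. Enzymes that resemble the ubiquitin cascade then attach ATG8 proteins to phosphatidylethanolamine in that membrane, and cargo receptors bind both the cargo and the attached ATG8 proteins. Blood stem cells and leukemic cells use the pathway to remove damaged mitochondria and to live through a lack of nutrients, and hypoxia is known to induce it.

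Most of the 38 genes had slightly higher levels with IOX5. Fold changes of IOX5 over DMSO were above 0 on the log2 scale for 36 of the 38 genes and below 0 for 2, against 52.8% and 47.2% of all 12405 genes tested. The median was 0.16 against 0.017 over all genes tested. A gene was called at a Benjamini-Hochberg adjusted p under 0.05 over all genes tested by edgeR's quasi-likelihood test. *Sqstm1* and *Tecpr1* rose by this test, so 2 of 38 genes were called higher where 0.774% of all genes were, and 0 were called lower where 1.25% were (2.02% in either direction). At an unadjusted p under 0.05, 12 of the 38 were higher and 0 lower, against 8.98% and 11.2% of all genes tested. DESeq2 called 8 higher and limma's voom 8, where they called 3.9% and 3.43% of their genes higher, and both called 0 of the 38 lower, against 4.9% and 4.92%. On simulated counts with 200 changed genes, DESeq2 without a block made 38 false calls, against 3 by edgeR and 4 by voom. DESeq2 also recovered more of the 100 genes with the smaller change (47, against 18 and 17). Of the 100 with the larger change it recovered 72, against 60 and 59. The simulation held no effect of the replicate number, so it cannot give the error rates in these data.

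Because equal replicate numbers deviate together, the same test was also fitted with the number as a block, which compares IOX5 with DMSO within each number. On the simulated counts, this blocked fit made 5 false calls. It recovered 55 of the 100 genes with the larger change and 4 of the 100 with the smaller. Since those counts held no effect of the number, its error rates in these data are not known either. With the block, 12 of the 38 genes were called higher and 0 lower, where 11.2% of all genes were called higher and 9.43% lower (20.7% in either direction). They were *Ulk2*, *Wipi1*, *Atg4c*, *Map1lc3a*, *Map1lc3b*, *Gabarap*, *Gabarapl1*, *Sqstm1*, *Nbr1*, *Tax1bp1*, *Calcoco1* and *Tecpr1*. By group, this was 1 of 5 initiation genes, 1 of 11 nucleation genes, 5 of 15 conjugation genes and 4 of 5 cargo receptors, so nucleation (9.09%) was near the share of all genes. The groups of samples did not overlap for 9 genes, all higher with IOX5 (23.7% of the 38, against 5.98% of all genes tested), and for 0 lower (8.3%). In all 4 pairs of equal numbers, 20 genes were higher and 0 lower, against 21.3% and 19.8% of all genes tested. The members were chosen with earlier results of these data known, so these counts are descriptions.

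Blocked calls of 6 genes (*Gabarap*, *Gabarapl1*, *Sqstm1*, *Nbr1*, *Calcoco1* and *Tecpr1*) were made whichever replicate number was left out, and those of the other 6 were not. Without number 1, the blocked adjusted p was 0.152 for *Map1lc3a* and 0.179 for *Tax1bp1*. Without number 2 it was 0.125 for *Atg4c* and 0.0537 for *Map1lc3a*. Without number 3 it was 0.0840 for *Ulk2*, 0.0704 for *Wipi1*, 0.0747 for *Atg4c*, 0.100 for *Map1lc3a*, 0.0615 for *Map1lc3b* and 0.0983 for *Tax1bp1*. Without number 4 it was 0.0522 for *Atg4c*, and *Ulk1* was called (0.0247). DESeq2 with the same block called the 12 genes other than *Atg4c* (adjusted p = 0.111) and *Map1lc3a* (0.150).

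**Figure D1:**
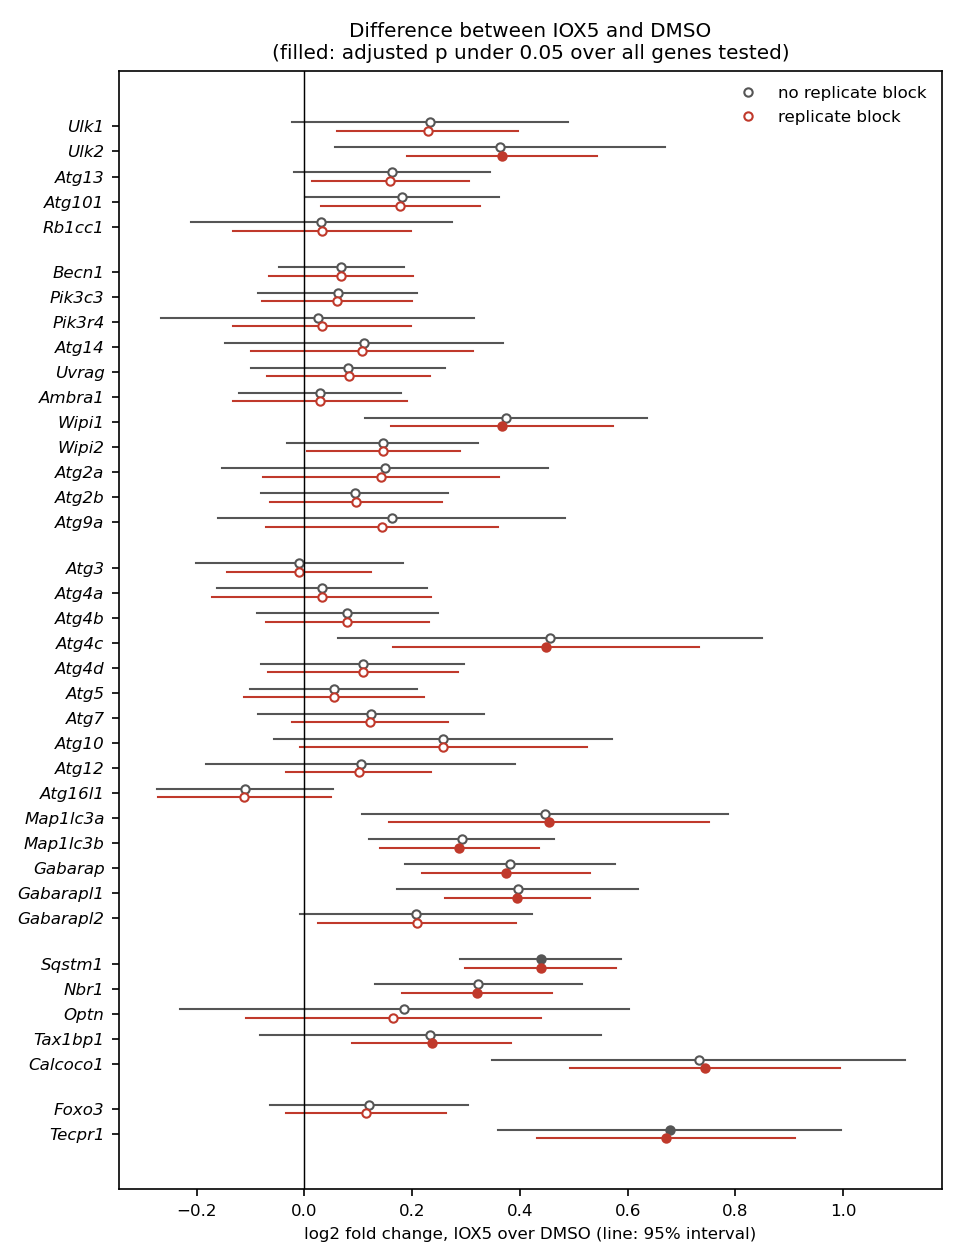
Log2 fold change of IOX5 over DMSO with 95% intervals for the 38 genes, in the fit without (grey) and with (red) the replicate block, where filled circles have an adjusted p under 0.05. The estimates barely differ between the fits, most red intervals are narrower, and 2 grey and 12 red circles are filled.

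Median log2 fold changes ran from 0.093 in nucleation and 0.12 in conjugation to 0.18 in initiation and 0.32 in the cargo receptors. Averaged over the 5 cargo receptors, log2 levels relative to the DMSO mean were 0.14, -0.19, 0.062 and -0.0060 in the DMSO samples and 0.53, 0.37, 0.37 and 0.25 in the IOX5 samples. Every IOX5 sample lay above every DMSO sample. This also held for the means of the initiation genes (DMSO at most 0.065, IOX5 at least 0.073) and conjugation genes (0.037 and 0.16). Nucleation genes averaged 0.12, 0.17, 0.16 and 0.0054 in the IOX5 samples, and IOX5 4 lay within the DMSO range of -0.029 to 0.069.

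**Figure D2:**
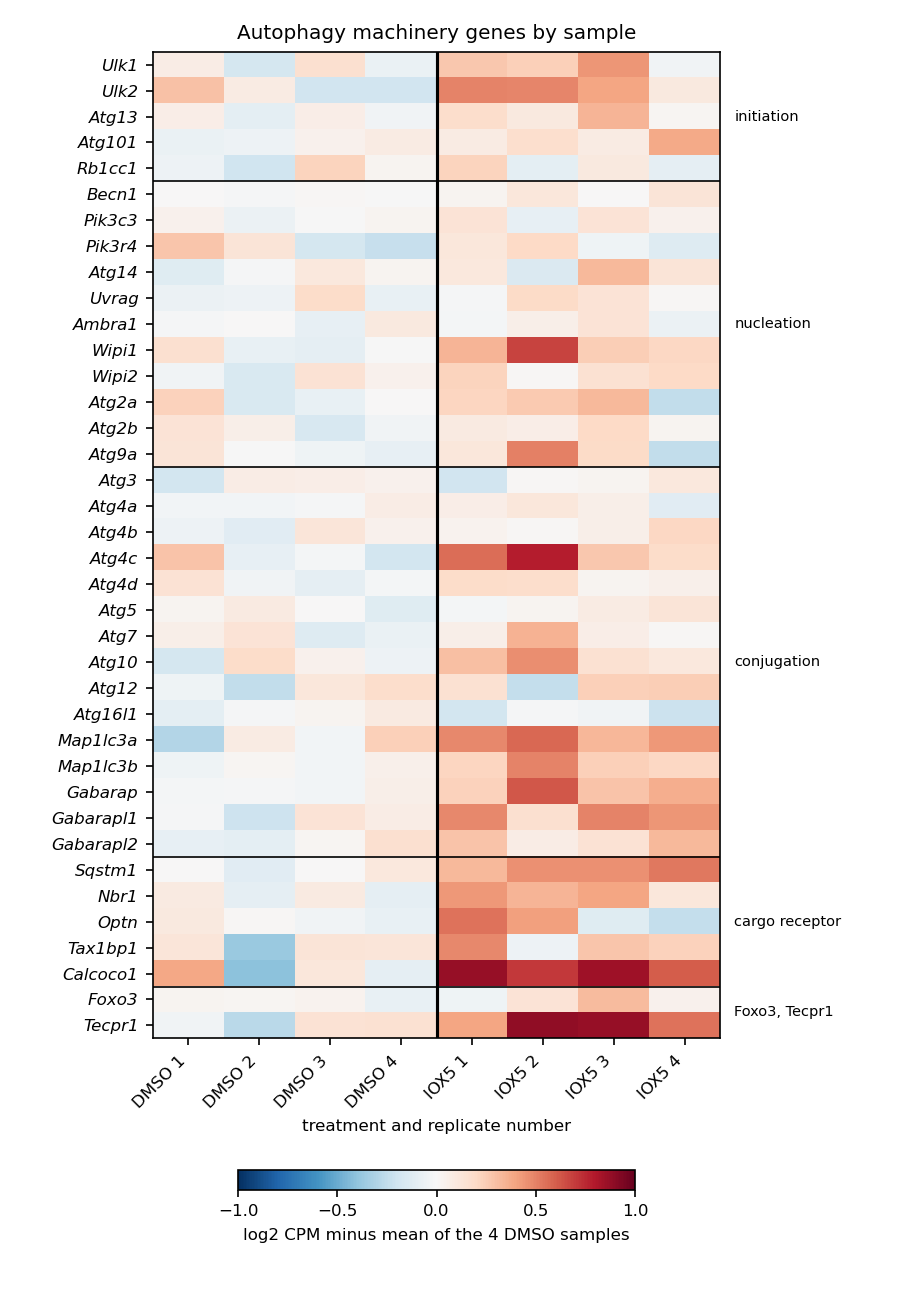
Log2 CPM of each of the 38 genes (rows, by group) in each of the 8 samples (columns), minus the mean of the 4 DMSO samples, with red above and blue below that mean. The ATG8 genes, *Sqstm1*, *Nbr1*, *Calcoco1* and *Tecpr1* are red in all 4 IOX5 samples, while most nucleation genes stay near 0 in both groups.

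Among the initiation genes, *Ulk2*, which encodes a kinase that starts autophagosome formation, had the largest difference. Its levels were 41.6, 35.9, 29.7 and 29.6 CPM with DMSO and 47.9, 47.5, 44.6 and 36.2 CPM with IOX5. Within every pair of equal numbers the IOX5 sample was the higher, although the groups overlapped. The mean went from 34.2 ± 5.72 to 44.0 ± 5.45 CPM (SD, n = 4), with a log2 fold change of 0.36 (SE 0.14) and an adjusted p of 0.180, which was 0.00745 with the replicate block. *Ulk1*, the paralog usually named as the main autophagy kinase, stood at 45.3, 38.03, 48.0 and 41.1 CPM with DMSO and 51.7, 50.6, 58.5 and 41.9 CPM with IOX5. Its log2 fold change of 0.23 had a 95% interval of -0.023 to 0.49 and adjusted p values of 0.289 and, with the block, 0.0527.

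The other subunits of the ULK complex passed neither fit. *Atg13*, the adaptor phosphorylated by mTORC1, had 59.3 ± 3.39 CPM with DMSO and 66.4 ± 6.42 CPM with IOX5 (log2 fold change 0.16, 95% interval -0.020 to 0.34). *Atg101*, which stabilizes ATG13, had 59.0 ± 2.94 CPM with DMSO and 66.9 ± 6.69 CPM with IOX5 (log2 fold change 0.18). *Rb1cc1*, which encodes the scaffold FIP200, was at 71.0 ± 8.74 and 72.5 ± 7.95 CPM, higher in 2 pairs and lower in 2.

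For the VPS34 lipid kinase complex, differences were small. Log2 fold changes of its 6 genes here ran from 0.025 (*Pik3r4*) to 0.11 (*Atg14*), and 0 of 6 passed either fit. *Becn1*, which encodes the core subunit Beclin 1, was at 167 ± 0.951 CPM with DMSO and 175 ± 7.52 CPM with IOX5. The 95% interval of its log2 fold change was -0.048 to 0.19. *Pik3c3*, the kinase VPS34 itself, had 67.0 ± 2.14 and 69.96 ± 4.92 CPM, and *Pik3r4*, its regulatory subunit, 43.7 ± 7.404 and 44.4 ± 4.63 CPM. *Atg14* directs the complex to autophagosome formation (interval -0.15 to 0.37), *Uvrag* belongs to its endosomal form (-0.099 to 0.26) and *Ambra1* regulates it through Beclin 1 (-0.12 to 0.18).

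*Wipi1* rose among the genes that act after the lipid kinase, when the block was fitted. It encodes a protein that binds phosphatidylinositol 3-phosphate on the growing membrane, and its levels were 37.7, 32.1, 31.8 and 33.7 CPM with DMSO and 42.7, 54.0, 39.9 and 38.9 CPM with IOX5. All IOX5 samples lay above all DMSO samples, and IOX5 2 was the highest. This gave a log2 fold change of 0.37 (SE 0.12), with an adjusted p of 0.120, and 0.0164 with the block. Without IOX5 2 the log2 fold change was 0.26. The paralog *Wipi2*, which recruits ATG16L1, had 75.1, 69.4, 85.1 and 79.2 CPM with DMSO and 89.9, 77.6, 85.5 and 88.3 CPM with IOX5, with a log2 fold change of 0.14 and an interval of -0.033 to 0.32.

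The lipid transfer genes *Atg2a* and *Atg2b* and the lipid scramblase gene *Atg9a* passed neither fit. *Atg2a* had 51.1, 39.3, 41.4 and 43.7 CPM with DMSO and 50.7, 52.3, 54.7 and 36.9 CPM with IOX5. *Atg2b* had 121, 114, 98.0 and 107 CPM with DMSO and 117, 115, 126 and 112 CPM with IOX5. Both overlapped widely between the groups, and IOX5 4 was the lowest of all samples for *Atg2a*. *Atg9a* had 37.4 ± 2.48 CPM with DMSO and 41.9 ± 8.85 CPM with IOX5, with IOX5 2 highest at 53.0 CPM and IOX5 4 lowest at 31.5 CPM.

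The calls of the conjugation group fell on 4 ATG8 genes and 1 protease. For the enzymes *Atg7* (the E1-like enzyme), *Atg3* and *Atg10* (the E2-like enzymes), and *Atg5*, *Atg12* and *Atg16l1* (the E3-like complex), 0 of 6 genes passed either fit. Log2 fold changes were 0.12 for *Atg7*, -0.0096 for *Atg3*, 0.26 for *Atg10*, 0.054 for *Atg5* and 0.10 for *Atg12*. *Atg16l1* had the lowest of all 38 genes, -0.11 (interval -0.27 to 0.053), and was lower with IOX5 in 3 of 4 pairs, with 47.3, 50.2, 51.6 and 54.0 CPM with DMSO and 44.7, 50.2, 49.4 and 43.7 CPM with IOX5. *Atg12* was low in both samples numbered 2, at 161 and 162 CPM against 186 to 227 CPM in the other 6.

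The 4 ATG4 proteases trim ATG8 proteins before conjugation and release them afterwards. *Atg4c* was the one called, and only with the block. Its levels were 9.39, 7.31, 7.64 and 6.79 CPM with DMSO and 11.4, 13.3, 9.30 and 8.76 CPM with IOX5, higher with IOX5 in every pair and highest in IOX5 2. The log2 fold change was 0.46 (SE 0.17), the adjusted p 0.189, and 0.0295 with the block. *Atg4a*, the highest of the family per length of merged exons (*Atg4b* was the highest per median coding transcript), had 19.1, 19.2, 19.3 and 20.5 CPM with DMSO and 20.4, 21.1, 20.4 and 18.0 CPM with IOX5 (interval -0.16 to 0.23). *Atg4b*, the main protease for ATG8 proteins, and *Atg4d* had log2 fold changes of 0.080 and 0.11. *Kri1*, with 10604 reads, overlaps exons of *Atg4d*, with 2790 reads, on the opposite strand.

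Of the 5 genes of the ATG8 family, 4 rose with the block. ATG8 proteins are the small ubiquitin-like proteins that coat the autophagosome membrane, in a GABARAP and an LC3 subfamily. *Gabarap* (ENSMUSG00000018567, chromosome 11, bases 69991143 to 69994951, plus strand, GRCm38) had 181, 182, 180.1 and 191 CPM with DMSO and 215, 282, 223 and 236 CPM with IOX5. The lowest IOX5 sample lay above the highest DMSO sample, and IOX5 2 stood above the other IOX5 samples. From 184 ± 5.09 to 239 ± 30.03 CPM (SD, n = 4), the log2 fold change was 0.38 (SE 0.086), with an adjusted p of 0.0584 and of 0.00342 with the block. Without IOX5 2 the log2 fold change was 0.29.

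*Gabarapl1*, the closest relative of *Gabarap*, had 83.9, 73.6, 93.3 and 89.4 CPM with DMSO and 118, 94.8, 119 and 115 CPM with IOX5. The groups did not overlap, and number 2 gave the lowest sample in each. From 85.0 ± 8.56 to 112 ± 11.5 CPM (SD, n = 4), its log2 fold change was 0.40 (SE 0.099), the adjusted p 0.0734, and 0.00107 with the block. *Gabarapl2*, also known as GATE-16, passed neither fit (log2 fold change 0.21, interval -0.0077 to 0.42), although it was higher with IOX5 in all 4 pairs.

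The LC3 genes are widely used as autophagosome markers at the protein level. *Map1lc3b* had 79.3, 82.7, 80.3 and 84.6 CPM with DMSO and 94.98, 115, 96.1 and 94.1 CPM with IOX5. The groups did not overlap, and IOX5 2 stood above the other IOX5 samples. The log2 fold change was 0.29 (SE 0.076), with an adjusted p of 0.0792, and 0.0108 with the block. *Map1lc3a* was the weakest of the family by reads, with 4.87, 6.30, 5.85 and 7.03 CPM with DMSO and 8.33, 8.88, 7.50 and 8.07 CPM with IOX5. All IOX5 samples were higher, the log2 fold change was 0.45 (SE 0.15), the adjusted p 0.147, and 0.0339 with the block.

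Divided by the length of the merged exons, *Gabarap* made up most of the family, at 99.5 CPM per kb with DMSO and 129.7 with IOX5. *Gabarapl1* followed with 42.2 and 55.6, and *Map1lc3a* was lowest with 5.09 and 6.94. The summed level per length was 168 ± 6.80 CPM per kb with DMSO and 217 ± 11.7 with IOX5 (SD, n = 4), with no overlap between the groups. The same sum was 15.0 ± 0.782 CPM per kb with DMSO and 18.0 ± 1.15 with IOX5 for *Wipi1* and *Wipi2*, without overlap. For the ATG4 family it was 19.3 ± 0.568 CPM per kb with DMSO and 21.004 ± 0.906 with IOX5, also without overlap. It was 12.4 ± 1.14 CPM per kb with DMSO and 15.2 ± 1.80 with IOX5 for ULK and 13.9 ± 1.25 CPM per kb with DMSO and 15.0 ± 1.42 with IOX5 for ATG2, both with overlap. The WIPI relatives *Wdr45* and *Wdr45b* were not in the sum of *Wipi1* and *Wipi2*. *Wdr45b* was lower with IOX5 without overlap, at 72.3 to 77.4 CPM with DMSO and 66.7 to 70.6 CPM with IOX5. *Wdr45* was higher, at 6.14 to 10.2 CPM with DMSO and 11.2 to 13.8 CPM with IOX5.

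**Figure D3:**
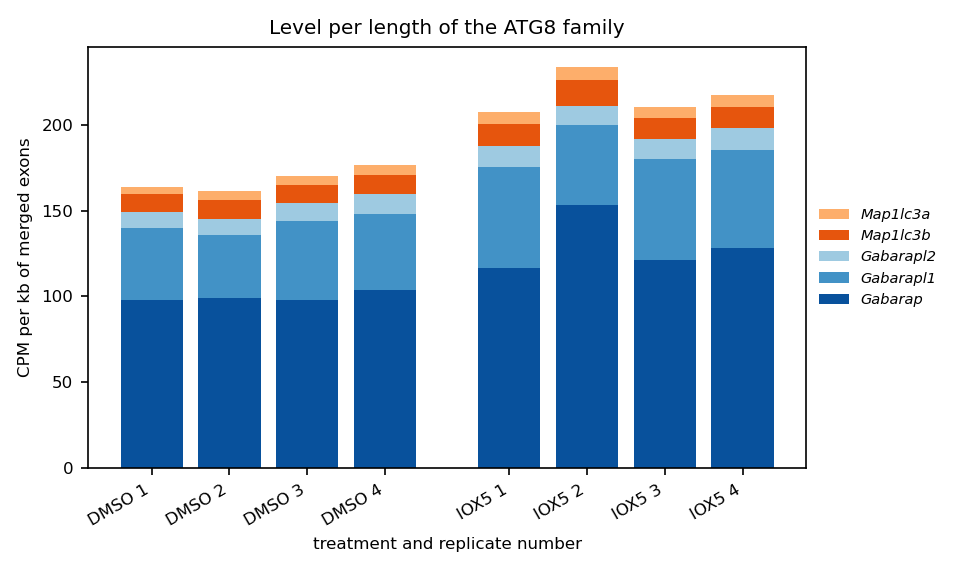
Stacked level per length (CPM per kb of merged exons) of the 5 ATG8 genes in each of the 8 samples, by treatment and replicate number. The whole bars run from 161 to 177 with DMSO and from 208 to 234 with IOX5, with *Gabarap* and *Gabarapl1* taking most of every bar.

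Whether the mix of paralogs differed was asked with 12 shares, each a gene's part of its family's summed level per length. An exact two-sided permutation test over 70 assignments can give no p under 0.0286, and 1 share at that p would have an adjusted p of 0.343 over the 12. The test also leaves out the pairing by number, so it could hardly make a call here, and the shares are given as values. *Gabarap* made up 59.3% ± 1.64 with DMSO and 59.5% ± 4.13 with IOX5 (SD, n = 4), and *Gabarapl1* 25.1% ± 1.89 with DMSO and 25.7% ± 3.83 with IOX5. *Map1lc3b* took 6.48% ± 0.235 with DMSO and 6.12% ± 0.323 with IOX5, lower in each of the 4 pairs (exact permutation p = 0.114). The share of *Atg4c* was 11.996% ± 1.56 with DMSO and 15.1% ± 2.28 with IOX5, higher in each of the 4 pairs (exact permutation p = 0.0857), and that of *Ulk1* was 53.8% ± 4.98 with DMSO and 51.4% ± 2.38 with IOX5. With median transcript length in place of merged exons, *Map1lc3b* took 14.6% with DMSO and 13.9% with IOX5, so the share of a gene within a sample depended on the length used.

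The cargo receptors held the strongest difference by adjusted p. *Sqstm1* (ENSMUSG00000015837, chromosome 11, bases 50199366 to 50210827, minus strand, GRCm38) encodes p62, which links ubiquitin-tagged cargo to ATG8 proteins. Its levels were 252, 233, 252 and 270.3 CPM with DMSO and 314, 344, 344 and 361 CPM with IOX5. The lowest IOX5 sample was above the highest DMSO sample. *Sqstm1* rose from 252 ± 15.3 to 341 ± 19.5 CPM (SD, n = 4), with a log2 fold change of 0.44 (SE 0.066) and an adjusted p of 0.0254. Leaving out any 1 of the 4 DMSO samples or IOX5 3 ended the call without a block (adjusted p from 0.0686 to 0.0959), while the log2 fold change stayed between 0.40 and 0.49. *Mrnip* overlaps 580 bases of *Sqstm1* exons on the opposite strand, with 833 reads against 29541.

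*Nbr1* (ENSMUSG00000017119, chromosome 11, bases 101552149 to 101581951, plus strand, GRCm38) encodes a receptor that acts beside p62. It had 101, 89.4, 102 and 89.7 CPM with DMSO and 128, 121, 125 and 103 CPM with IOX5. Only IOX5 4 came near the DMSO samples, and the groups did not overlap. For *Nbr1* the log2 fold change was 0.32 (SE 0.085), the adjusted p 0.0821, and 0.00425 with the block. *Calcoco1*, a receptor for the Golgi and the endoplasmic reticulum, had 13.6, 7.78, 11.2 and 9.73 CPM with DMSO and 19.0, 16.9, 18.6 and 15.8 CPM with IOX5. Again the groups did not overlap. Its log2 fold change of 0.73 (SE 0.17) was the largest of the 38 genes, and the adjusted p was 0.0601, and 0.000970 with the block.

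*Tax1bp1*, which recognizes ubiquitin and binds NBR1, drew the most reads of all 38 genes. Its levels were 802, 571, 807 and 801 CPM with DMSO and 1028, 714, 896 and 868 CPM with IOX5. Both samples numbered 2 were low, so the groups overlapped although IOX5 was higher in every pair. Its log2 fold change was 0.23 (SE 0.14), with an adjusted p of 0.388, and 0.0273 with the block. Without DMSO 2 the log2 fold change was 0.12, and without IOX5 1 0.15, in the fit without a block. *Optn*, which encodes the mitophagy receptor optineurin, was higher with IOX5 in 2 pairs and lower in 2. Numbers 1 and 2 had 12.3 and 11.6 CPM with DMSO and 16.7 and 15.3 CPM with IOX5. Numbers 3 and 4 had 11.2 and 10.9 CPM with DMSO and 10.6 and 9.71 CPM with IOX5. The log2 fold change was 0.19 with an interval of -0.23 to 0.60, and this difference between numbers was not tested. The fold change on the log2 scale was 0.043 without IOX5 1, 0.10 without IOX5 2 and 0.30 without IOX5 4.

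*Tecpr1* (ENSMUSG00000066621, chromosome 5, bases 144194442 to 144223615, minus strand, GRCm38) encodes a protein that tethers autophagosomes to lysosomes by binding the ATG5 and ATG12 conjugate. It had 27.0, 22.9, 30.5 and 30.7 CPM with DMSO and 36.2, 51.1, 50.4 and 40.2 CPM with IOX5. The groups did not overlap, and IOX5 2 and 3 were well above the other IOX5 samples. *Tecpr1* rose from 27.8 ± 3.65 to 44.5 ± 7.44 CPM (SD, n = 4), with a log2 fold change of 0.68 (SE 0.14) and an adjusted p of 0.0485, close to the threshold. That p was 0.0519 with RLE factors in place of TMM factors, and it was above 0.05 when any sample other than IOX5 4 was left out (0.0559 to 0.132). *Foxo3*, a transcription factor that can induce autophagy genes, had 126 ± 4.41 CPM with DMSO and 137 ± 15.0 CPM with IOX5 (log2 fold change 0.12, interval -0.064 to 0.30) and passed neither fit.

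**Figure D4:**
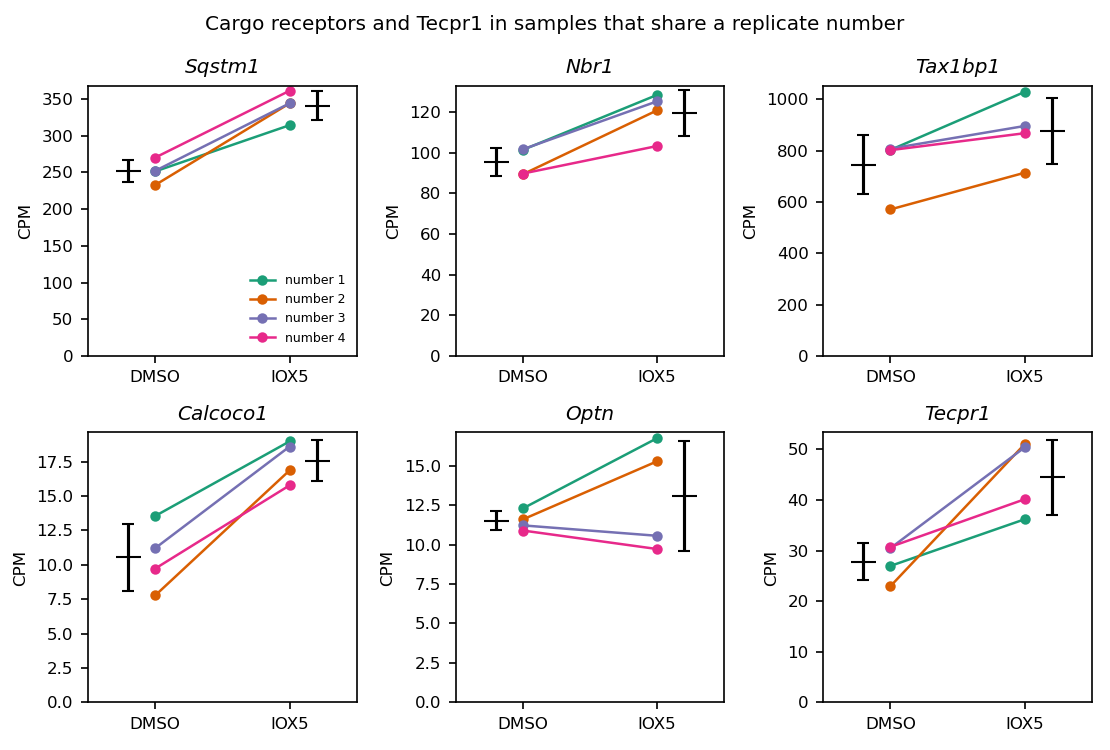
CPM of the 5 cargo receptors and *Tecpr1* in DMSO and IOX5 samples, with lines between samples of equal replicate number and black marks for the mean ± SD of each group (n = 4). *Sqstm1*, *Nbr1*, *Calcoco1* and *Tecpr1* are higher with IOX5 on every line with no overlap between groups, *Tax1bp1* is higher on every line with number 2 low in both groups, and *Optn* is higher on 2 lines and lower on 2.

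The promoters of these genes were searched for motifs, in windows of 250 bases before to 50 bases after the gene start in RefSeq (GRCm38.p6). Windows were given for 32 of the 38 genes, 36 windows in all. HIF binds a core of the hypoxia response element that reads ACGTG or GCGTG. The letters ACGTG were found on either strand in 15 of 36 windows (41.7%), against 19.6% of all 32851 windows and 26.1% of the windows of tested genes. Of the genes called with the block, 4 of 11 with a window held it, and of the others 11 of 21. GCGTG was in 24 of 36 windows (66.7%), against 32.4% of all windows and 50.5% of those of tested genes, and in 7 of the 11 called genes and 15 of the 21 others. The letters CACGTG, which contain ACGTG on both strands and make up an E-box read by TFEB among others, were in 4 windows (11.1%, against 7.15% of all and 10.2% of those of tested genes), and in 0 of the 11 called genes. The forkhead motif TGTTTAC was in 0 windows, against 3.65% of all and 2.5% of those of tested genes. A match is a description and not a binding site.

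Upstream sequence is shown for both genes called without a block and for the receptor gene *Nbr1*, called with it. *Sqstm1* holds neither form of the core here, *Tecpr1* holds 1 GCGTG and *Nbr1* 1 ACGTG. Each is the 250 bases before the gene start, 5′ to 3′ on the gene's strand, with the matches, both on the opposite strand (read as CACGC and CACGT), in capitals. *Sqstm1* lies at chr11:50210821-50211070, minus strand, *Tecpr1* at chr5:144223616-144223865, minus strand and *Nbr1* at chr11:101551857-101552106, plus strand. The GC content of these 3 sequences was 63.2%, 66.8% and 54.4%.
Sqstm1: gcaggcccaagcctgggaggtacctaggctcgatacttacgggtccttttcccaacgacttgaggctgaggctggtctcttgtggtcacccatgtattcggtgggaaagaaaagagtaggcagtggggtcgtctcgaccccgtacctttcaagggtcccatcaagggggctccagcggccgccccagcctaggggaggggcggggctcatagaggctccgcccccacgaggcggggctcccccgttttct
Tecpr1: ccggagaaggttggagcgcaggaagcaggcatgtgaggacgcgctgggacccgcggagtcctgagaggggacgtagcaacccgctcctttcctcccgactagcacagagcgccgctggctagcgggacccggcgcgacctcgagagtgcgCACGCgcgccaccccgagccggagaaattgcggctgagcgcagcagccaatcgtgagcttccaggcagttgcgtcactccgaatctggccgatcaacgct
Nbr1: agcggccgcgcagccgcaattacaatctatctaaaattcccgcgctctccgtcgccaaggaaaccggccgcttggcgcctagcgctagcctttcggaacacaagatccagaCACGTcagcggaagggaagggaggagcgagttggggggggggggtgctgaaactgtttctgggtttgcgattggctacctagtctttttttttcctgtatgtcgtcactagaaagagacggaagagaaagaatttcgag

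Further genes of the pathway were read from 4 lists. Of all genes tested, 0.774% were called higher and 1.25% lower without the block, and 11.2% and 9.43% with it. At an unadjusted p under 0.05, 8.98% were higher and 11.2% lower. With the block, 6.67% of the regulators, 16.7% of the formation genes and 16.7% of the fusion genes were called higher, near the share of all genes. Of the other cargo receptors, 38.5% were. Of 16 regulators and energy sensors, 15 were tested and edgeR called 0 (1 at an unadjusted p under 0.05, 0 by DESeq2 and by voom, 1 with the block). *Foxo4*, a forkhead factor, was the one with the block (log2 fold change 0.30, SE 0.12, adjusted p = 0.212, 0.0379 with the block), and *Mlst8*, an mTOR complex subunit, was next by adjusted p (log2 fold change -0.14, SE 0.076, adjusted p = 0.355, 0.215 with the block). Of 12 other genes of autophagosome formation, 0 were called (6 at an unadjusted p under 0.05, 4 of them higher, 1 by DESeq2, 1 by voom), and with the block 2 were higher. These were *Wdr45*, a WIPI relative (log2 fold change 0.54, SE 0.17, adjusted p = 0.121, 0.0137 with the block), and *Ei24*, a membrane protein of the endoplasmic reticulum (log2 fold change 0.20, SE 0.073, adjusted p = 0.166, 0.0415 with the block). The 2 lower genes at an unadjusted p under 0.05 were *Wdr45b* and *Nrbf2*, neither with overlap between the groups. Log2 fold changes were -0.13 for *Wdr45b* (SE 0.051, adjusted p = 0.192, 0.161 with the block) and -0.22 for *Nrbf2* (SE 0.095, adjusted p = 0.231, 0.138 with the block).

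Of 12 genes of fusion with the lysosome, 0 were called (2 at an unadjusted p under 0.05, 2 by DESeq2, 1 by voom), and 2 were higher with the block. *Vps41* is a subunit of the HOPS tethering complex (log2 fold change 0.25, SE 0.066, adjusted p = 0.0799, 0.0185 with the block), and *Vamp8* is a SNARE of late endosomes and lysosomes (log2 fold change 0.37, SE 0.12, adjusted p = 0.125, 0.00188 with the block). Of 15 other cargo receptors, 13 were tested and 2 were called higher, the mitophagy receptors *Bnip3* and *Bnip3l*, which are textbook HIF targets. *Bnip3* had 134, 62.1, 110.0 and 112 CPM with DMSO and 225, 206, 189 and 208 CPM with IOX5 (log2 fold change 0.98, SE 0.20, adjusted p = 0.0469, 0.000224 with the block). *Bnip3l* had 121, 79.6, 102 and 99.7 CPM with DMSO and 184, 144, 155 and 149 CPM with IOX5 (log2 fold change 0.65, SE 0.13, adjusted p = 0.0460, 8.09e-05 with the block). Both lay without overlap between the groups. With the block, 5 of the 13 were higher and *Phb2* was lower, and *Calcoco2* had 0 reads in all libraries. Median log2 fold changes of the 4 lists ran from 0.019 to 0.11.

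Other HIF targets show the response of the libraries. *Ankrd37* had 5.29, 5.44, 6.50 and 6.95 CPM with DMSO and 13.5, 18.2, 16.3 and 15.0 CPM with IOX5 (log2 fold change 1.38, SE 0.15, adjusted p = 0.0143, 3.79e-05 with the block), and the glycolytic switch gene *Pdk1* was also higher (log2 fold change 0.67, SE 0.079, adjusted p = 0.0157, 8.8e-05 with the block). *Egln3*, which encodes PHD3, and *Vegfa* were higher with the block (3.1e-05 and 0.00421, against 0.136 and 0.0794 without it), while *Car9* passed neither fit (0.426 and 0.193).

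Per length of merged exons, the highest of the 38 genes with DMSO were *Gabarap* (99.5 CPM per kb), *Sqstm1* (75.0) and *Tax1bp1* (74.6), and the lowest was *Calcoco1* (1.84). *Sqstm1* and *Tax1bp1* differed by less than their spread. Per median length of coding transcripts, *Tax1bp1* came first (227 CPM per kb), before *Gabarap* (175) and *Sqstm1* (124), and *Atg4c* last (2.61). All 38 genes together took 2933 to 3308 CPM of the DMSO libraries and 3586 to 3796 CPM of the IOX5 libraries, without overlap.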

How the data were processed

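RNA-seq counts of 4 DMSO and 4 IOX5 samples were analyzed. Per the labels and the study's methods, the authors trimmed the reads with cutadapt 1.18, mapped them with HISAT2 2.2.1 to a transcript-aware GRCm38 index, whose release the methods name, and counted reads per Ensembl gene with HTSeq 2.0.1. The deposited values are raw counts per gene, library by library. The release of the annotation used for counting and the strand setting are not given in the sources used here. The study's libraries were made with a directional kit. *Xist* had 105071 reads and its antisense partner *Tsix* 21, which alone cannot show that counting told strands apart, since *Tsix* may be low for other reasons. Annotated exons of another gene lie on the opposite strand of 12 of the 38 genes, and on the same strand of 1, *Atg9a* (*Gm29253*, 2 reads).

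In each file, 5 summary lines for unassigned reads (20.6% to 22.6% of reads) were left out. Of 54838 genes, 54809 were matched by identifier to GENCODE M21, which gave symbols, coordinates and lengths. R 4.3.3 with edgeR 4.0.16 was used for filterByExpr (12405 genes kept), TMM factors, the quasi-likelihood test of IOX5 against DMSO without a block, and Benjamini-Hochberg adjustment over all genes tested, with calls at 0.05. CPM values use TMM factors. Log2 levels relative to the DMSO mean use no prior count. The log2 CPM behind the replicate correlations, and behind the overlap and pair shares of all genes tested, use a prior count of 2. The common biological coefficient of variation was 0.202. Shares were tested by exact permutation with SciPy 1.17.1. Intervals are 95% intervals of the fit. No 2 replicates agreed within sampling noise (chi-square per degree of freedom 2.19 or more), so each counted as 1, which does not show that they were independent. Numbers 3 and 4 were the most alike. DMSO 3 and 4 gave 2.19, against 14.2 to 23.1 for the other DMSO pairs. IOX5 3 and 4 gave 9.40, against 18.4 to 41.7 for the other IOX5 pairs.

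Replicate numbers come from the labels, which do not say what they mark. Deviations from the group means correlated between equal numbers by 0.758, 0.744, 0.732 and 0.636 over 12405 genes, so a fit with the number as a block is given where it changes a call. DMSO 4 correlated more with IOX5 3 (0.685) than with IOX5 4. Other alternatives were DESeq2 1.42.0 with and without the block, voom of limma 3.58.1 with sample weights, other factors (RLE, upper quartile), other filters and leaving out each sample. Blocked fits without 1 number or with numbers 3 and 4 merged, transcript length for shares and promoter windows of tested genes and the GCGTG motif were added once the data had been seen. On simulated counts, which held no effect of the replicate number, edgeR with and without the block, DESeq2 without it and voom were tested. The other fits were not.

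The members and gene lists were chosen with earlier results of these data known. All 38 genes are named. Values in every sample are given for genes called in either fit, the largest changes of a group and the highest and lowest of a family per length. Of each further list, the 2 genes with the smallest adjusted p are named. *Atg12* and *Optn*, *Phb2* and *Calcoco2*, and *Wdr45b* and *Nrbf2*, were singled out after their values were seen.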

Additional observations from a re-analysis of the deposited data

Results flagged for a closer look

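In 8 of 76 groups of 4 samples, 1 sample stood further from the others than Dixon's 95% critical value allows, where chance gives about 3.8. With DMSO, *Tax1bp1* was low in DMSO 2 (571 CPM against 801 to 807 CPM in the other 3), and *Uvrag* was high in DMSO 3 (66.5 CPM against 55.7 to 56.5 CPM in the other 3). *Atg3* was low in DMSO 1 (99.0 CPM against 115 to 118 CPM in the other 3), *Foxo3* was low in DMSO 4 (119.8 CPM against 128 to 129 CPM in the other 3), and *Atg4a* was high in DMSO 4 (20.5 CPM against 19.1 to 19.3 CPM in the other 3). With IOX5, the sample that stood apart was IOX5 2 each time. It was high for *Atg7* (82.7 CPM against 65.4 to 68.2 CPM in the other 3) and *Map1lc3b* (115 CPM against 94.1 to 96.1 CPM in the other 3) and low for *Gabarapl1* (94.8 CPM against 115 to 119 CPM in the other 3). The macrophage markers were also highest in IOX5 2, at 497 CPM in sum, and their part in these values was not tested.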

How the results depend on the processing

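Member calls depended on the model. Against 2 genes called higher, there were 12 with the replicate block, 8 with DESeq2 (10 with the block), 8 with voom and 1 with RLE factors, and 0 were called lower in all of these. Leaving out 1 sample without a block gave 0 to 3, and 0 without DMSO 1, 2, 3 or 4 or IOX5 3. Leaving out numbers 1 to 4 in turn under the block gave 10, 10, 6 and 12, and *Gabarap*, *Gabarapl1*, *Sqstm1*, *Nbr1*, *Calcoco1* and *Tecpr1* were called each time. Merging numbers 3 and 4 gave 12.

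Over all genes, 96 were called higher and 155 lower. The counts were 1394 and 1170 with the block, 433 and 544 with DESeq2, 901 and 795 with DESeq2 and the block, and 426 and 610 with voom. They were 92 and 113 with RLE factors, 101 and 108 with upper-quartile factors, and 79 and 73 without a filter. Leaving out 1 sample gave 0 to 130 higher and 0 to 333 lower. Blocked fits without numbers 1 to 4 gave 994 and 650, 1119 and 1016, 642 and 403, and 1355 and 1058, and merging numbers 3 and 4 gave 1438 and 1216. The causes were not tested.

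The median of the conjugation genes was 0.14 to 0.18 without 1 sample each. Signs turned for fold changes near 0. *Atg3* was 0.0014 with RLE factors, 0.0080 with upper-quartile factors and 0.0041 with at least 10 reads in every sample. Without 1 sample each, the ranges were -0.066 to 0.047 for *Atg3*, -0.036 to 0.11 for *Rb1cc1*, -0.036 to 0.12 for *Pik3r4* and -0.0081 to 0.076 for *Ambra1*. With the block, *Rb1cc1* was -0.055 without number 1, *Atg3* 0.0074 and *Atg4a* -0.0025 without number 2, *Ambra1* -0.036 without number 3 and *Atg5* -0.0076 without number 4. Differences in share of 6 paralogs turned as well, with ranges in percentage points of -0.58 to 0.35 for *Atg4d*, -2.12 to 0.24 for *Atg4b*, -0.43 to 2.48 for *Atg2a*, -0.0023 to 0.28 for *Map1lc3a*, -1.78 to 1.30 for *Gabarap* and -0.24 to 2.47 for *Gabarapl1*.

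With 4 samples a group, the 95% intervals of the members' log2 fold changes were 0.23 to 0.83 wide (median 0.41). Read counts per gene do not give the level or the activity of a protein, and CPM per length depends on the gene model. The replicate block changed no call among the members other than those given beside the results.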
